A study of Arabidopsis thaliana with 4 samples.

Results

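The genes described here act on the plant cell wall. They are the expansins EXPA1 (At1g69530) and EXPA8 (At2g40610), the xyloglucan endotransglucosylase/hydrolases (XTHs) XTH22 (At5g57560), XTH27 (At2g01850) and XTH31 (At3g44990), the extensin EXT4 (At1g76930) and the class III peroxidase At5g64120, also called PRX71. Each could be tied to 1 probe set, so there were 7 probe sets of 22746 on the ATH1 array without its controls. They were picked by name, with the log2 ratios of the eif3h mutant to the wild type on these same arrays already known. The ratios are therefore given as a description, with no test. The arrays were hybridized with total RNA from shoots of seedlings aged 10 days, and the genotypes, eif3h-1 mutant and wild type, had 2 arrays each. Plants of both genotypes grew on agar with sucrose under continuous light, and many shoots were pooled for a sample. eif3h-1 is a single T-DNA allele of the h subunit of eukaryotic translation initiation factor 3 that still makes a little truncated protein. RNA was prepared independently for the 2 repeats, on different days, and each repeat gave 1 array of each genotype.

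A growing plant cell is held by cellulose microfibrils that are tied together by xyloglucan and embedded in pectin. Expansins loosen this network at acidic pH without cutting it, and XTHs cut xyloglucan chains and join or hydrolyse the ends. Extensins are hydroxyproline-rich rods that are cross-linked into the wall by class III peroxidases, which stiffens it. In seedlings the loosening proteins accompany the expansion of leaves, petioles and hypocotyls. The DNA, RNA and protein sequences of these genes were not used here.

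Each value is a MAS 5.0 signal, a linear intensity that had been scaled to a common trimmed mean on every array. Array medians ranged from 200.4 to 220.4. Probe sets differ in how strongly they bind, so each gene is compared between arrays only. A probe set was tested if its mean signal was at least 327. As a check of the labels, the eIF3h transcript (TIF3H1, At1g10840) had a signal of 245 and 432 in the mutant and 1363 and 1020.5 in the wild type. The leaf marker RCA, Rubisco activase, had between 28004.5 and 58204 and so stood far above the medians. The root hair expansins EXPA7 and EXPA18 had between 61.8 and 217, and EXPA18 in mutant repeat 2 stayed just under the median of its array. Of the 16 marker genes looked for, only these and PYK10 could be tied to a probe set (6291 to 10915), and PYK10 is also made in the seedling shoot. In pooled shoots, fewer cells of a type and less RNA per cell cannot be told apart.

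The plot of signals shows the outline: EXPA1, EXPA8 and XTH27 were lower in the eif3h mutant, XTH31, EXT4 and At5g64120 were higher, and XTH22 was lower by a small margin. For all 7 genes the mutant and wild-type arrays did not overlap, 4 with the mutant below and 3 with it above. Such separation was frequent on these arrays, with the mutant below for 23.9% of the tested probe sets and above for 28.4%.

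**Figure D1:**
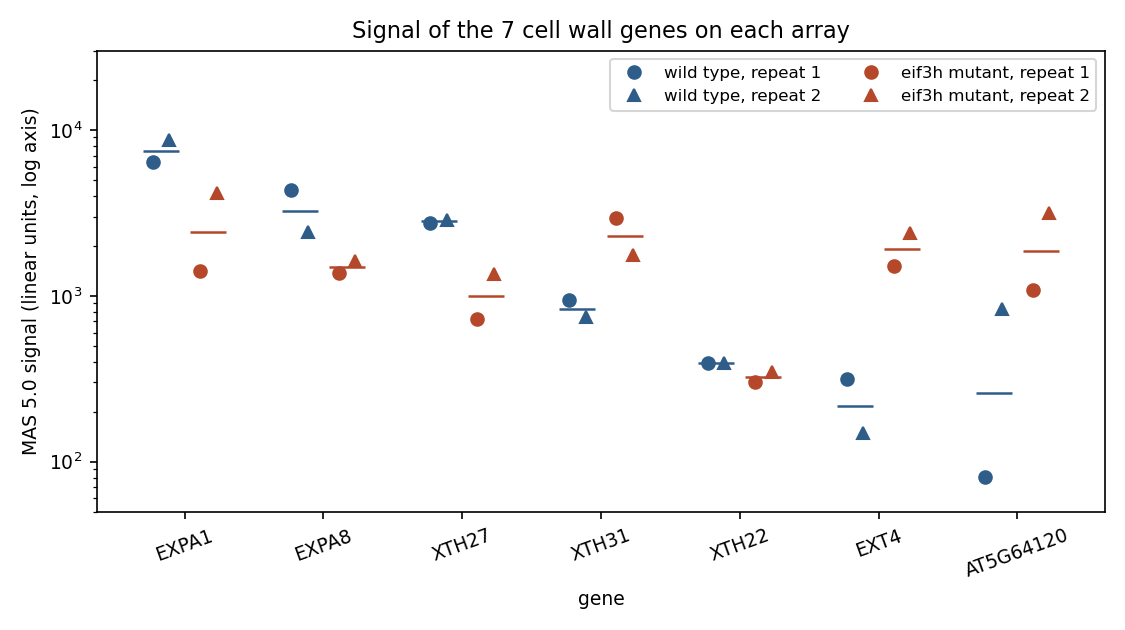
MAS 5.0 signal (linear units on a log axis) of the 7 cell wall genes on each of the 4 arrays. Circles are repeat 1 and triangles repeat 2, blue is the wild type and red the eif3h mutant, and bars are means of the log2 signals. For XTH27 and XTH22 the wild-type points almost coincide, while the wild-type points of At5g64120 lie at 81.0 and 834.

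Both expansins had less transcript in the mutant. EXPA1, an alpha-expansin of leaves and guard cells, had a signal of 1403 and 4179 in the mutant and of 6380.3 and 8664 in the wild type in repeats 1 and 2. Both mutant arrays lay below both wild-type arrays, and the mutant arrays differed more from each other than the wild-type arrays did. EXPA1 was thus 4.55-fold lower in repeat 1 and 2.07-fold lower in repeat 2, with a mean log2 ratio of -1.62 ± 0.80 (SD, n = 2 repeats). With 1 array left out, only the difference of the group means can be taken, which mixes the repeats. For EXPA1 this difference changed most when a mutant array was left out. It was -0.83 without mutant repeat 1 and -2.41 without mutant repeat 2.

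EXPA8, a further alpha-expansin, had a signal of 1367 and 1621 in the mutant and of 4364 and 2424 in the wild type. Here the mutant arrays were close together, and the wild type was high in repeat 1 and nearer to the mutant in repeat 2. EXPA8 was 3.19-fold lower in repeat 1 and 1.50-fold lower in repeat 2, with a mean log2 ratio of -1.13 ± 0.77. The difference of the group means, mixing the repeats, was -0.70 without wild type repeat 1 and -1.55 without wild type repeat 2. The gap between the repeats was thus on the mutant side for EXPA1 and on the wild-type side for EXPA8.

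The XTH genes did not move together. XTH27, whose enzyme is known from developing leaf veins, had a signal of 727 and 1354.5 in the mutant and of 2752 and 2856 in the wild type. The wild-type arrays were nearly equal, and the mutant was 3.79-fold lower in repeat 1 and 2.11-fold lower in repeat 2. The mean log2 ratio of XTH27 was -1.50 ± 0.60.

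XTH31, an enzyme that acts on xyloglucan and is linked to aluminium sensitivity in roots, went the other way. Its signal was 2949.7 and 1764 in the mutant and 946 and 741 in the wild type. It was 3.12-fold higher in repeat 1 and 2.38-fold higher in repeat 2, and its mean log2 ratio was 1.45 ± 0.28. Among the genes with ratios beyond 2-fold in both repeats, XTH31 had the smallest spread between them.

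XTH22, better known as TCH4 for its induction by touch and also induced by brassinosteroid, had a signal of 300.5 and 349 in the mutant and of 391 and 393 in the wild type. The groups did not overlap, but the difference was 1.30-fold in repeat 1 and 1.13-fold in repeat 2, with a mean log2 ratio of -0.27 ± 0.15. Of the tested probe sets, 25.5% had a lower ratio than XTH22, so its place was unremarkable. The difference of the group means, mixing the repeats, was -0.17 without mutant repeat 1 and -0.38 without mutant repeat 2. The other 3 touch genes, TCH1 to TCH3, could not be tied to a probe set, and neither could XTH25, the protein-coding gene next to XTH22.

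The cross-linking genes gave the largest ratios of the 7. EXT4, which encodes an extensin and has EXT1 as a synonym, had a signal of 1520.4 and 2395 in the mutant and of 316 and 149.8 in the wild type. The repeats went in opposite directions within the genotypes: from repeat 1 to repeat 2 the signal was 1.58-fold higher in the mutant and 2.11-fold lower in the wild type. As a result the mutant was 4.81-fold higher in repeat 1 and 16.0-fold higher in repeat 2. The mean log2 ratio was 3.13 ± 1.23, and 0.0906% of the tested probe sets had a higher one. Both wild-type signals lay under the bound of 327, so EXT4 was among the tested only through its mutant signals. That share is therefore of no weight.

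At5g64120, the gene of a secreted peroxidase, had a signal of 1087 and 3148 in the mutant and of 81.0 and 834 in the wild type. Both genotypes were higher in repeat 2, by 2.90-fold in the mutant and 10.3-fold in the wild type, and wild type repeat 2 came near to mutant repeat 1. The mutant was 13.4-fold higher in repeat 1 and 3.77-fold higher in repeat 2, with a mean log2 ratio of 2.83 ± 1.29. The difference of the group means was 1.15 without wild type repeat 1 and 4.51 without wild type repeat 2. With an array left out it mixes the repeats, so it also holds part of the difference between them. The lowest signals, 81.0 for At5g64120 and 149.8 for EXT4, lie under the medians of their arrays, and as detection calls were not used here, the largest folds are uncertain in size.

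**Figure D2:**
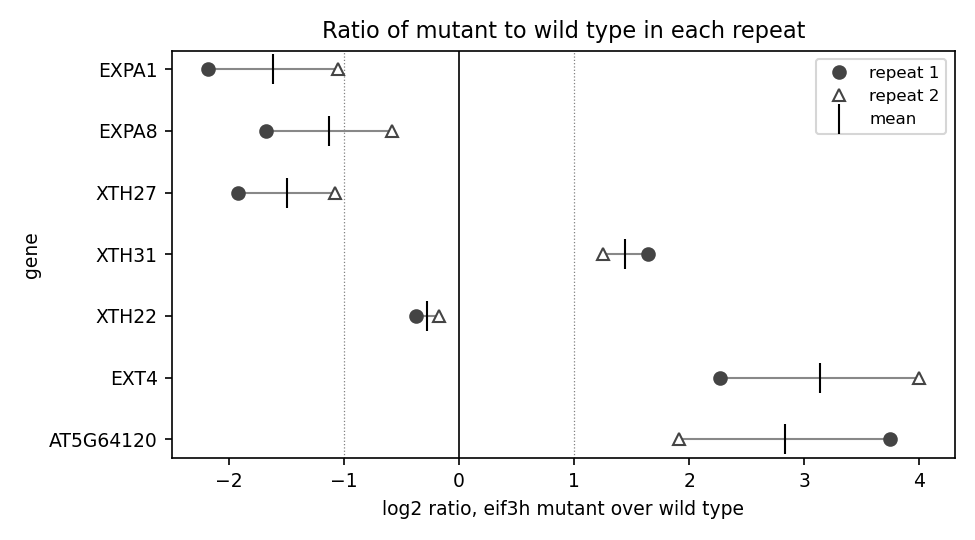
Log2 ratio of the eif3h mutant over the wild type for each of the 7 genes, with repeat 1 as filled circles, repeat 2 as open triangles and the mean as a bar; dotted lines mark 2-fold. Both repeats lie on one side of 0 for every gene, and 5 genes are beyond 2-fold in both, EXPA8 and XTH22 being the exceptions.

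The size of the ratio thus differed between the repeats while its direction did not. Each of the 7 genes had the same sign in both repeats, as did 74.7% of all tested probe sets. Ratios were larger in repeat 1 for 6 of the 7 genes, EXT4 being the exception, against 52.0% of the tested probe sets. As the genes were chosen with these ratios known, neither count is of weight. For At5g64120 the ratios of the 2 repeats were 1.83 apart on the log2 scale and for EXT4 1.73 apart, gaps that 0.328% and 0.408% of the tested probe sets exceeded. For XTH22, by contrast, 59.4% had a larger gap. The wild-type mean of At5g64120 (8.02 on the log2 scale) lay under the bound of 327, like that of EXT4 (7.77). Both genes were among the tested through their high mutant signals, so the shares given for their gaps are of no weight. In 5 of the 7 genes both ratios were beyond 2-fold, against 3.79% of the tested probe sets, but this share is of no weight for genes chosen with these ratios known. In limma with the repeat as a block, the called probe sets were 9.68% (lower) and 8.49% (higher) of those tested, and they included 3 and 3 of the 7 genes, all but XTH22. By the study's 2-fold rule, which called 5.76% in either direction, 5 of the 7 were called. Without the block, limma called 0.917% and EXT4 was the 1 of the 7 among them. The genes were chosen with this contrast known. Their calls only place them among the tested probe sets and are of no weight as tests.

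The difference between the repeats played no part in the choice of the genes and could be tested. At5g64120 was higher in repeat 2 by 2.45 on the log2 scale (standard error 0.37, adjusted p = 0.026 from limma, over the genotypes), in a fit that called 2.47% of the tested probe sets in either direction. The other 6 genes did not pass. EXPA1 came next, with 1.01 (standard error 0.27, adjusted p = 0.0895 from limma) and a signal in repeat 2 that was 2.98-fold that of repeat 1 in the mutant and 1.36-fold in the wild type. XTH31 had -0.55 (adjusted p = 0.141 from limma) and XTH27 0.48 (adjusted p = 0.262 from limma). EXPA8 (-0.30), EXT4 (-0.21) and XTH22 (0.11) had adjusted p-values of 0.528 to 0.758 in limma. The call on At5g64120 was lost with quantile normalization (adjusted p = 0.0521), with all probe sets in the test (adjusted p = 0.399) and without any 1 of the arrays (adjusted p = 0.0589 to 0.998 in limma without the genotype term; log2 difference 0.58 without wild type repeat 1, 1.49 without mutant repeat 2 and 4.32 without mutant repeat 1). EXPA1 passed when the prior variance followed the intensity (adjusted p = 0.0288). The 4 marker genes with a probe set also had higher deposited signals in repeat 2 in both genotypes, though for PYK10 in the mutant by no more than the gap between the array medians. RCA was 1.90-fold higher in the wild type and 1.81-fold in the mutant and was itself called (log2 difference 0.89, adjusted p = 0.0452 from limma). It ranked 10 in mean signal. The highest signal of the arrays also rose in repeat 2, from 43564.1 to 102338.6 in the wild type and from 37508.9 to 86884 in the mutant. The part of this rise in the RCA difference was not tested. EXPA18 was 2.09-fold and 2.28-fold higher, EXPA7 1.17-fold and 1.64-fold, and PYK10 1.74-fold and 1.05-fold. The part of tissue makeup in the difference between repeats was not tested. Arrays of different repeats were also hybridized on different days and scanned on different scanners, so growth, RNA preparation and array handling cannot be told apart.

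**Figure D3:**
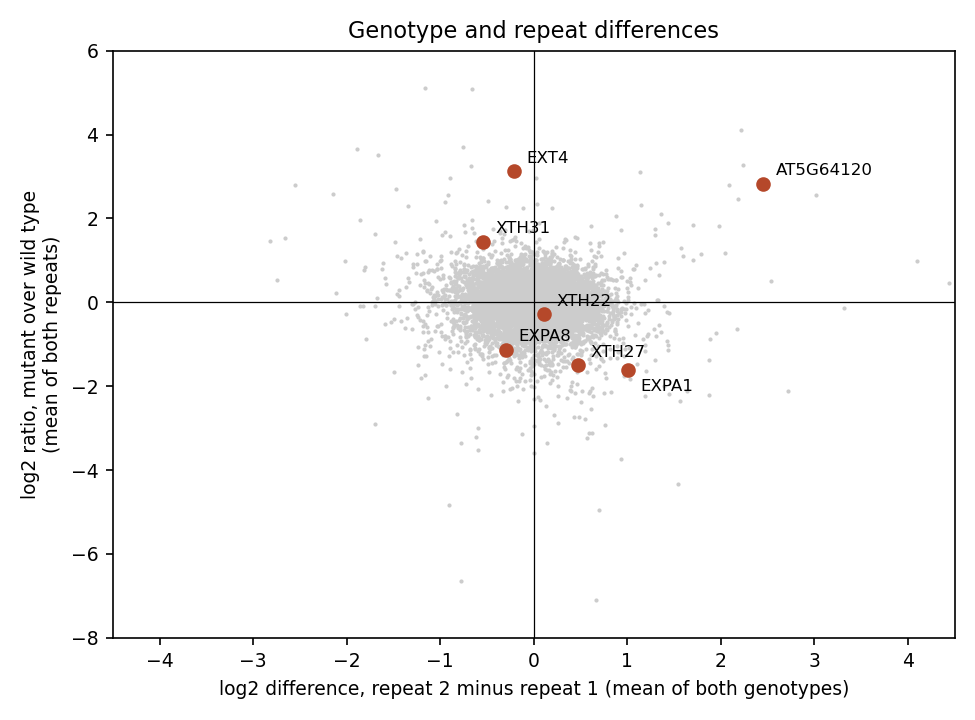
Mean log2 ratio of the eif3h mutant over the wild type (vertical axis) against the mean log2 difference of repeat 2 minus repeat 1 (horizontal axis), with the tested probe sets in grey and the 7 cell wall genes in red. At5g64120, at 2.45 and 2.83, lies far out on both axes, whereas EXT4 differs between genotypes by 3.13 and between repeats by -0.21.

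Across the 4 arrays the pattern of EXPA1 was closest to that of XTH27 among the 7. The distance between their log2 signals, each centred on its mean, was 0.56, against 1.40 between EXPA1 and EXPA8. The same distance was computed to all named, tested probe sets. The nearest to EXPA1 were At2g38870 (0.27) and the RING finger gene RZPF34 (At5g22920, 0.27), and the nearest to XTH27 was PnsL4 (At4g39710, 0.16), for a subunit of the chloroplast NDH complex, followed by At5g18600 (0.18). EXPA8 was nearest to At5g45430 (0.08) and At4g16140 (0.10), and XTH22 to At1g05790 (0.02) and At5g25560 (0.07). Of the 4761 probe sets compared, 1576 lay within a distance of 0.5 of XTH22, so nearness to it was common. Within that distance lay 83 for EXPA8, 48 for XTH27, 27 for XTH31, 6 for EXPA1, 1 for At5g64120 and 0 for EXT4.

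Among the genes that were higher, XTH31 was nearest to At2g43780 (0.19) and CORI3 (At4g23600, 0.20), a jasmonate-responsive gene. EXT4 had no close companion, the nearest being At5g15360 (0.81) and At2g35820 (0.84). At5g64120 was nearest to At2g43620 (0.48) and At4g12490 (0.64). At2g43620 had a signal of 707 and 1861 in the mutant and of 74.8 and 584 in the wild type, and so also had its low point in wild type repeat 1. With 4 arrays such likeness is a description only.

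Relatives of the 7 genes were collected by name, without using the study's lists of changed genes. The word is used widely here. The lists for cellulose synthesis and pectin modification hold none of the 7 genes, and they gave 6 and 1 of the tested relatives. Of 50 relatives in 5 lists, 13 were bright enough to be tested. Of these, 1 fell in limma, 12 did not pass and none rose (2 lower and 1 higher at an unadjusted p under 0.05), against 9.68% lower and 8.49% higher among all tested probe sets. The median log2 fold change of the 13 relatives was -0.16, against 0.03 over all tested probe sets. It was 0.07 without mutant repeat 2, 0.01 without wild type repeat 1, -0.30 without mutant repeat 1 and -0.33 without wild type repeat 2. Over all probe sets, with all 50 relatives in the test, the median was 0.01 and none was called. At an unadjusted p under 0.05 in limma, 1 of the 50 was lower and 7 higher, against 1414 and 1269 of all 22746 probe sets. Among the 9 relatives in the 5000 brightest probe sets the median was -0.07. The gene that fell was CSLC04 (At3g28180) of the cellulose synthesis list, a glucan synthase that makes the backbone of xyloglucan. Its signal was 463 and 618 in the mutant and 852 and 912 in the wild type, with no overlap, and limma gave a log2 fold change of -0.72 with a standard error of 0.18 (adjusted p = 0.0348). CSLC04 was not called without the repeat block (adjusted p = 0.179), and neither was it over all probe sets nor without any 1 of the arrays.

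Besides EXPA8, 18 expansin genes were named, of which 4 were tested and none passed in limma (1 rose and none fell at an unadjusted p under 0.05). Over all tested probe sets 9.68% were called lower and 8.49% higher, so none of 4 says little about the family. With EXPA8 in the list 1 of 5 fell, but EXPA8 was chosen with its ratio known. EXPA4 (At2g39700), an alpha-expansin, had a signal of 1614 and 798.5 in the mutant and of 758 and 694 in the wild type, a log2 fold change of 0.65 (adjusted p = 0.0941 from limma). EXPB3 (At4g28250), a beta-expansin, had -0.18, EXLB1 -0.07 and EXPA15 0.42. The median of these 4 was 0.18, but -0.28 without mutant repeat 1, -0.05 without wild type repeat 2, 0.41 without wild type repeat 1 and 0.64 without mutant repeat 2. Whether EXPA1 and EXPA8 differ from the other expansins was not tested.

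Of 9 further XTH genes, 2 were tested and none passed in limma, also at an unadjusted p under 0.05. With 9.68% of all tested probe sets called lower and 8.49% higher, none of 2 says little about the family. With XTH27, chosen with its ratio known, 1 of 3 fell. XTH16 (At3g23730) had a log2 fold change of -0.36 and XTH32 (At2g36870) of -0.02. Over all probe sets the median of the 9 was 0.23, and none was called in limma. At an unadjusted p under 0.05, 4 of the 9 were higher and none lower, against 1269 higher and 1414 lower of all 22746 probe sets. In cellulose and glucan synthesis, 1 of 6 tested genes fell, CSLC04, against 9.68% called lower among all tested probe sets. CSLD2, with 0.15, had the highest value. The list holds no gene named as a cellulose synthase (CESA), and the tested ATCSLC08, CSLC6 and CSLC5 share the CSLC name of CSLC04. COB (COBRA), needed for oriented cell expansion, had -0.02. The pectin methylesterase gene PMEPCRF (At5g53370) had -0.49 (adjusted p = 0.12 from limma). No other gene that the annotation names as a class III peroxidase was bright enough to be tested. Genes that it gives by locus alone, such as At5g64110 beside At5g64120, were in none of the lists. No extensin or arabinogalactan protein gene could be named through the platform annotation.

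**Figure D4:**
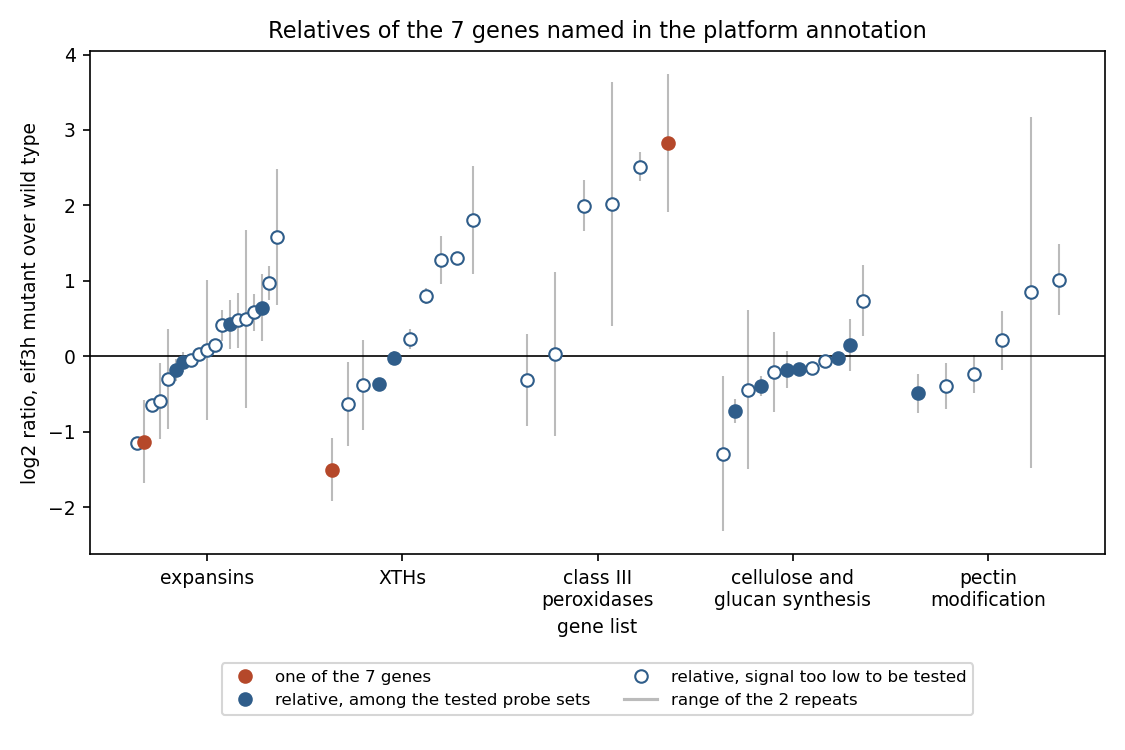
Log2 ratio of the eif3h mutant over the wild type for every gene named in the platform annotation in 5 cell wall lists; points are means of the 2 repeats and grey lines span the repeats. Red points are EXPA8, XTH27 and At5g64120, filled blue points are tested relatives and open points are relatives with signals too low to be tested; the filled blue points lie between -0.72 and 0.65.

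The 37 relatives with low signals were not tested. More than 2-fold higher in the mutant in both repeats were 4 of them, against 4.77% of the 13915 probe sets outside the tested ones, and 1 was more than 2-fold lower in both, against 4.61%. They are named here after their values were seen. PRX37 (At4g08770), a class III peroxidase, had a signal of 312.0 and 411 in the mutant and of 62.4 and 62.9 in the wild type, with log2 ratios of 2.32 and 2.71. Both mutant values were above the medians of their arrays and both wild-type values far below. XTH19 (At4g30290) had 198 and 498.5 against 83.0 and 194.5, with log2 ratios of 1.26 and 1.36. XTH20 (At5g48070), with signals of 16.2 to 113, and the peroxidase PER36 (At3g50990), with 7.2 to 75.2, were fainter, and the 1 that was lower, the expansin-like EXLA3, had signals of 3.5 to 31.5. Of the root hair markers, EXPA7 had 78.1 and 128 in the mutant and 61.8 and 72.2 in the wild type, and EXPA18 had 95.0 and 217 against 89.1 and 187. The part of root RNA in these values was not tested.

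The genes beside the 7 on the chromosomes were looked at as well. Of the 14 protein-coding neighbours on either side in the TAIR10.1 annotation, 10 had a named probe set, with log2 ratios between -0.99 and 0.63. Among them were At5g64110 next to At5g64120, with -0.38, and At1g76920 and At1g76940 around EXT4, with 0.23 and 0.50. The lowest was At1g69526 next to EXPA1, with -0.99 and a signal too low to be tested.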

How the data were processed

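Total RNA of 4 samples (2 eif3h mutant, 2 wild type) had been hybridized to Affymetrix ATH1 arrays. Intensity values were used as deposited: linear MAS 5.0 signals, for which the authors had corrected the background and scaled each array with the Affymetrix software. The trimmed mean was 500.0 on each array (2% trimmed at each end), and nothing was normalized further. The array number limits the precision. Settings files were read only for shared days and scanners.

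The 8831 probe sets with the highest mean log2 signal (at least 327 when turned back to the linear scale) were tested. That number was taken from the study's filter on detection calls, which were not used here. The fit used limma 3.58.1 in R 4.3.3 on log2 signals, with terms for the repeat and the genotype (1 residual and 6.58 prior degrees of freedom), and p-values were Benjamini-Hochberg adjusted over all 8831. Calls are at an adjusted p under 0.05. The repeat was a block because the methods take ratios within a repeat. Deviations of same-numbered arrays correlated at 0.530. With 2 arrays against 2, an exact test on one gene cannot give a two-sided p below 0.333. The fit was checked on simulated data.

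Genes were named through the platform annotation (13513 probe sets with 1 symbol, 503 with several, 8730 with none) and RefSeq's gene table. EXPA1, XTH22, XTH31 and EXT4 were named only through the study's list of changed genes. Family lists use the platform annotation alone. PRP39, PEX4 and PMEAMT matched a name pattern but are of other kinds and were left out. Named are the 7 genes, list members that were called or had the extreme values, and the 2 nearest genes by pattern. Members, lists and rules were chosen with earlier results of these data known. Alternatives were other scalings, an offset of 50, all or the 5000 brightest probe sets, an intensity trend, no repeat block, the 2-fold rule, probe sets that may cross-hybridize left out, and each array left out. Python 3.11.15 with numpy 2.4.6, pandas 2.3.3 and matplotlib 3.10.9 made the summaries.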

Additional observations from a re-analysis of the deposited data

How the results depend on the processing

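The direction of all 7 genes was kept without the repeat block, with quantile normalization, median centring and the offset of 50, and without each array in turn. The other alternatives do not alter a gene's ratio, and XTH22 and EXT4 are not among the 5000 brightest probe sets. Without the replicate block limma called 67 probe sets lower and 14 higher in the mutant, against 855 and 750. The 2-fold rule took 332 and 177, and with 1 array left out limma called 42 to 139 lower and 15 to 44 higher. Over all probe sets limma called 0 lower and 0 higher (1414 and 1269 at an unadjusted p under 0.05). Among the relatives the 1 call, CSLC04, became 0 without the block, over all probe sets, by the 2-fold rule and with any array left out (0 to 2 lower at an unadjusted p under 0.05 in limma). In the difference between repeats, 128 probe sets were lower and 90 higher in repeat 2. Limma called 33 and 32 with quantile normalization, 206 and 71 with median centring, 321 and 271 with an intensity trend, and 0 and 0 over all probe sets (744 and 2011 at an unadjusted p under 0.05). With 1 array left out it called 0 to 5 in each direction (143 to 276 lower and 88 to 259 higher unadjusted). The fits that leave out an array have no block or genotype term and rest the spread on the remaining pair. Their differences between genotypes mix the repeats, and those between repeats mix the genotypes. The cause of these shifts was not tested. The replicate block changed no other call on a relative.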
